A study of Mus musculus with 9 samples.

Results

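Epididymal adipose tissue, the large visceral fat pad of the male mouse, was compared after 2 weeks of weight loss (WL2) with the same tissue in obesity (Pre). Pre mice were wild-type male C57BL/6J mice given a high-fat diet (HFD) for 8 weeks from the age of 8 weeks. WL2 mice had the same 8 weeks of HFD and then 2 weeks of standard diet (SD). RNA of the whole tissue was sequenced in 3 libraries per group, so that 6 of the 9 libraries of this experiment are compared here. The other 3 libraries, taken after 1 week of SD (WL1), entered the model for the spread between libraries and are given beside some values. All genes with at least 0.5 counts per 1000000 (CPM) in at least 1 of the 9 libraries were kept, which left 18510 of 56748 genes. WL2 mice were 2 weeks older than Pre mice, and none of the 9 libraries came from mice kept on HFD for those weeks, so that diet and age cannot be told apart here. The labels do not say whether each library came from its own mouse, and the p-values measure the spread between these libraries.

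In obesity, fat cells enlarge, immune cells gather around them, and the extracellular matrix that wraps each cell thickens. Insulin and a plentiful supply of sugar drive fat cells to make fatty acids and store them as triglycerides. Under weight loss, stored triglycerides are broken down and released as fatty acids and glycerol. The matrix of fat holds collagen fibrils made by fibroblasts and a basement membrane around each fat cell.

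Library totals lay between 16434450 and 22729072 counts. On the first principal component of the 6 libraries, which held 42.16% of the variance, the Pre libraries scored -20.9, -67.6 and -24.6 and the WL2 libraries 31.0, 41.6 and 40.5, so that the groups did not overlap. Pre replicate 2 stood apart from the other Pre libraries. Its summed level of 15 B and plasma cell markers was 4132 CPM, against 1202 and 1360 CPM in Pre replicates 1 and 3 and 262 to 526 CPM at WL2. The 17 adipocyte markers summed to between 44414 and 58995 CPM at Pre and between 49744 and 51550.4 CPM at WL2. These sums bear out fat tissue, but they do not show which fat pad it was. Genes of the mitochondrial chromosome took 3.15% to 3.57% of the counts at Pre and 2.28% to 2.88% at WL2. In whole tissue, fewer cells of a type and less RNA per cell cannot be told apart.

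WL2 was tested against Pre by the quasi-likelihood test of edgeR, and p-values were adjusted by Benjamini-Hochberg over the 18510 genes with a threshold of 0.05 (written below as edgeR adjusted p). A gene is said to have risen or fallen at WL2 only where it passed that threshold. Of all genes tested, 10.0% passed, 3.35% by a rise and 6.66% by a fall, and these shares are the background for each count of list members below. The median log2 fold change of all genes was 0.008. With libraries scaled by their totals alone, that median was 0.158 and 64.2% of the passing genes were higher, against 33.5% here. Of the passing genes, 716 changed at least 2-fold, 210 upward and 506 downward. Leaving out WL2 replicate 2 gave 743 passing genes and leaving out WL2 replicate 3 gave 966. The rises were 388, 168 and 243 in number without WL2 replicates 1, 2 and 3. The falls numbered 575 and 723 without WL2 replicates 2 and 3, and 450 genes changed at least 2-fold without WL2 replicate 2. Each call on a named gene was tried in 9 fits that each left out 1 library, or 8 for *Sox10*, and a call lost in any of them is stated. Genes named for the size of their change were chosen among those without overlap between the Pre and WL2 libraries, so that their lack of overlap is no further evidence. Most list members are named because they passed the threshold, so that a lack of overlap in them is no further evidence either. The share of all genes without overlap is not given here. An unadjusted p under 0.05 was held by 26.0% of all genes.

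**Figure D1:**
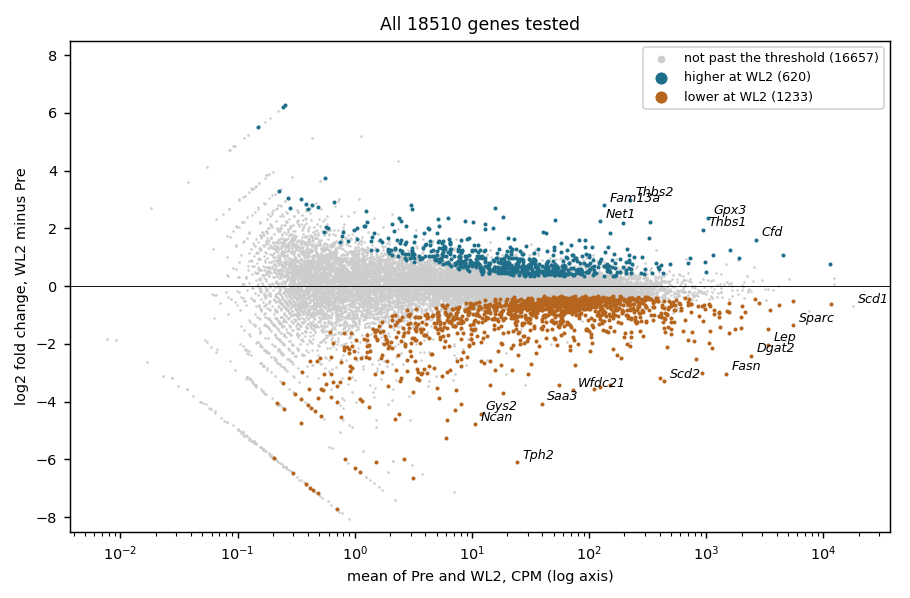
Each point is 1 of the 18510 genes, with the mean of the Pre and WL2 groups in CPM on a log axis and the log2 fold change of WL2 minus Pre on the vertical axis. The 620 genes higher at WL2 and the 1233 lower at WL2 are coloured, and among abundant genes *Thbs2*, *Gpx3* and *Cfd* lie above 0 while *Fasn*, *Scd2* and *Dgat2* lie well below it.

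Among abundant genes, *Thbs2*, *Gpx3* and *Thbs1* were among the 8 with the largest rise. *Thbs2*, a matricellular glycoprotein, had 40.0, 57.8 and 50.9 CPM at Pre and 423, 324 and 443 CPM at WL2. *Thbs1*, its close relative, had 305, 348 and 510.1 CPM at Pre and 1423, 1412 and 1657 CPM at WL2. *Gpx3*, the secreted glutathione peroxidase, had 303, 433 and 277 CPM at Pre and 1564, 1876 and 1753 CPM at WL2. The groups were far apart for all 3 genes, with a lowest WL2 library above the highest Pre library. *Thbs2* rose 8-fold (log2 fold change 3.00, SE 0.23, edgeR adjusted p = 4.82e-05), *Gpx3* rose 5.12-fold (log2 fold change 2.36, SE 0.19, edgeR adjusted p = 6.8e-05) and *Thbs1* rose 3.86-fold (log2 fold change 1.95, SE 0.20, edgeR adjusted p = 0.000227). The mean of *Thbs2* at WL1 was 298 CPM. WL1 and WL2 were set against the same Pre libraries, so that WL1 means are given as values only. *Chrdl1*, a secreted antagonist of bone morphogenetic proteins, had 123, 128 and 103 CPM at Pre and 535, 549 and 565 CPM at WL2 (log2 fold change 2.22, SE 0.21, edgeR adjusted p = 0.000132). *Net1*, an exchange factor for the GTPase RhoA, had 32.8, 39.7 and 57.4 CPM at Pre and 205, 215 and 195 CPM at WL2 (log2 fold change 2.24, SE 0.23, edgeR adjusted p = 0.000254). *Inmt*, an indolethylamine methyltransferase, had 22.4, 19.7 and 10.0 CPM at Pre and 71.2, 105 and 77.8 CPM at WL2 (log2 fold change 2.29, SE 0.27, edgeR adjusted p = 0.000613). These 3 genes were higher in each WL2 library than in any Pre library. *Fam13a*, a gene tied to fat distribution in people, had 37.3, 31.5 and 32.5 CPM at Pre and 195, 264 and 247 CPM at WL2 (log2 fold change 2.80, SE 0.23, edgeR adjusted p = 7.45e-05). Among genes with lower counts, *Mycl*, a Myc-family transcription factor, rose 5.23-fold (log2 fold change 2.39, SE 0.31, edgeR adjusted p = 0.00096), and *Acsm3*, a mitochondrial medium-chain acyl-CoA synthetase, rose 5.15-fold (log2 fold change 2.37, SE 0.41, edgeR adjusted p = 0.00553). The remaining rises in this group were *Cpne9* (2.62), *Prss51* (2.35) and *Ripk4* (2.68) on the log2 scale. *Ripk4* lost its call without WL2 replicate 2 or 3, with log2 fold changes from 2.23 to 3.39 over the 9 fits.

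*Tph2*, *Ncan*, *Plppr4* and *Slc5a7* were among the steepest falls. *Tph2*, the neuronal form of tryptophan hydroxylase, had 29.5, 33.4 and 81.8 CPM at Pre and 0.602, 0.567 and 0.927 CPM at WL2 (log2 fold change -6.10, SE 0.64, edgeR adjusted p = 0.0003). *Ncan*, the brain proteoglycan neurocan, had 19.8, 15.4 and 26.1 CPM at Pre and 1.04, 0.283 and 0.869 CPM at WL2 (log2 fold change -4.79, SE 0.36, edgeR adjusted p = 3.54e-05). *Plppr4*, a phospholipid phosphatase-related protein known from neurons, had 14.5, 4.57 and 15.9 CPM at Pre and 0.329, 0.510 and 0.0579 CPM at WL2 (log2 fold change -5.25, SE 0.61, edgeR adjusted p = 0.00056). *Slc5a7*, the high-affinity choline transporter, had 108, 64.5 and 129 CPM at Pre and 12.8, 6.23 and 9.21 CPM at WL2 (log2 fold change -3.42, SE 0.30, edgeR adjusted p = 9.73e-05). For these 4 genes the mean at WL1 lay between the group means, at 10.3 CPM, 4.90 CPM, 2.30 CPM and 58.1 CPM in the same order. *Oxtr*, the oxytocin receptor, had 289, 162 and 229.8 CPM at Pre and 19.3, 19.9 and 21.1 CPM at WL2, a fall of 11.3-fold (log2 fold change -3.49, SE 0.20, edgeR adjusted p = 1.25e-05), and its mean at WL1 was 191 CPM. *Paqr9*, a membrane receptor of the progestin and adiponectin receptor family, had 271, 232 and 322 CPM at Pre and 34.5, 20.6 and 22.3 CPM at WL2 (log2 fold change -3.41, SE 0.22, edgeR adjusted p = 1.51e-05). *Wfdc21*, a small secreted protein of the whey acidic protein family, had 135, 137 and 129 CPM at Pre and 11.2, 10.4 and 11.2 CPM at WL2 (log2 fold change -3.61, SE 0.18, edgeR adjusted p = 1.25e-05), and the spread within each group was small beside the gap. *Rnase2a*, one of a family of near-identical eosinophil-type ribonucleases among which reads may be split, fell by 4.63 on the log2 scale, and *Serpina1d*, one of several near-identical serpin genes, by 4.61.

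Of 12 genes tested of desmosomes, the junctions that rivet epithelial cells together, 3 fell and 1 rose. *Dsg1b* had 43 reads in the 3 Pre libraries and 0 in the 3 WL2 libraries. Set against the 3 reads that a count of 0 allows over the WL2 group, the ratio of WL2 to Pre was at most 0.0745. *Dsg1a* and *Dsg1b* are near-identical copies between which reads may be split, and *Dsg1a* had 1 read at WL2 against 113 at Pre, a ratio of 0.00945 after scaling with a 95% counting interval from 0.000237 to 0.0537. *Pkp1*, which anchors desmosomal cadherins, had 2 reads against 168, a ratio of 0.0127 (0.00153 to 0.0466). These limits cover counting error only. These were the 3 falls, and *Pkp4* rose (log2 fold change 0.79, SE 0.19, edgeR adjusted p = 0.0273). *Pkp4* lost its call without Pre replicate 2 or any 1 WL2 library, with log2 fold changes from 0.61 to 0.91 over the 9 fits. The median log2 fold change of the list was -2.20, and 9 of the 12 members lay below 0. The summed level of the list, which abundant junction genes dominate, was 561 to 659.7 CPM at Pre and 685 to 759 CPM at WL2.

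Enzymes that build fatty acids fell together. Of 18 genes of fatty acid synthesis, 11 fell, 1 rose and 6 did not pass, with a median log2 fold change of -0.69. *Fasn*, the synthase that assembles palmitate (ENSMUSG00000025153, chromosome 11), had 2267, 2873 and 2789.9 CPM at Pre and 194, 321 and 449 CPM at WL2. *Scd2*, a desaturase that puts a double bond into long acyl chains (ENSMUSG00000025203, chromosome 19), had 646, 729 and 1005 CPM at Pre and 77.6, 70.8 and 94.8 CPM at WL2. *Acss2*, which makes acetyl-CoA from acetate, had 97.8, 101 and 148 CPM at Pre and 30.9, 33.4 and 31.7 CPM at WL2. In each of these genes the highest WL2 library lay far below the lowest Pre library. *Fasn* fell 8.22-fold (log2 fold change -3.04, SE 0.29, edgeR adjusted p = 0.000156), *Scd2* fell 9.78-fold (log2 fold change -3.29, SE 0.19, edgeR adjusted p = 1.25e-05) and *Acss2* fell 3.62-fold (log2 fold change -1.86, SE 0.16, edgeR adjusted p = 0.000103). The list's rise was in *Acacb*, the mitochondrial acetyl-CoA carboxylase whose product holds back fatty acid oxidation, with 71.1, 65.7 and 60.0 CPM at Pre and 128, 109 and 108 CPM at WL2 (log2 fold change 0.81, SE 0.15, edgeR adjusted p = 0.00737). *Acaca*, the cytosolic carboxylase that feeds the synthase, had 133, 123 and 133 CPM at Pre and 93.0, 106 and 112 CPM at WL2 and did not pass (log2 fold change -0.33, SE 0.12, edgeR adjusted p = 0.106). *Scd1*, the main desaturase of fat, was singled out after its values were seen, as the most abundant member per length. It had 20657, 22813 and 22553 CPM at Pre and 10539, 12025 and 18330.0 CPM at WL2 (log2 fold change -0.69, SE 0.21, edgeR adjusted p = 0.0643), so that the WL2 libraries lay below the Pre libraries but spread widely among themselves. Per length, *Scd1* stood at 4223 FPKM at Pre and *Scd2* at 136 FPKM. The counts of falls in this list ran from 10 to 11 with each library left out.

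Upstream sequence was examined for this group, because its members moved together. The RefSeq table used (GRCm38.p6) held 16 promoters for 14 of the 18 genes of fatty acid synthesis and 18 promoters for 15 of the 22 genes of cholesterol synthesis and uptake. The 250 bases before each annotated start were searched on both strands for the E-box, CACGTG, for a sterol regulatory element, TCACNCCAC with N any base, and for the box of the factor NF-Y, CCAAT, which reads as ATTGG when it lies on the other strand. CCAAT was held by 14 of 18 promoters of cholesterol genes (77.8%), 8 of 16 of fatty acid genes (50%), 2 of 7 of fibrillar collagen genes (28.6%) and 33.8% of all 32851 promoters. CACGTG was held by 3 of 18 (16.7%), 3 of 16 (18.8%) and 0 of 7, against 6.02% of all promoters. TCACNCCAC was held by 1 of 18, 0 of 16 and 0 of 7, against 1.05% of all promoters. Among 20 promoters of 15 circadian clock genes, 6 held CACGTG (30.0%), 14 held CCAAT (70.0%) and 0 held TCACNCCAC. Several promoters belong to the same gene, and no test was made. The promoters of *Hmgcs1* (chr13:119690101-119690350, plus strand), *Fasn* (chr11:120824548-120824797, minus strand) and *Acss2* (chr2:155517793-155518042, plus strand) are shown as examples of 1 cholesterol gene and 2 fatty acid genes that fell. They are written from the base farthest from the start to the base before it, with each match in capitals. *Hmgcs1* is shown because it is the cholesterol promoter with the TCACNCCAC match, 137 bases before the start, beside 3 matches of ATTGG. In *Fasn* the forward match 62 bases before the start and the reverse match at 59 bases overlap.
Hmgcs1: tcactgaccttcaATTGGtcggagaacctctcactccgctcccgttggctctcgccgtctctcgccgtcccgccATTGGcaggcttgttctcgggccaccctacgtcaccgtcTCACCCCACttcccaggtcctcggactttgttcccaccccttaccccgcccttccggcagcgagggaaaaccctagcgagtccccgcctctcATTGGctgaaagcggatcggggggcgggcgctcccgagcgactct
Fasn: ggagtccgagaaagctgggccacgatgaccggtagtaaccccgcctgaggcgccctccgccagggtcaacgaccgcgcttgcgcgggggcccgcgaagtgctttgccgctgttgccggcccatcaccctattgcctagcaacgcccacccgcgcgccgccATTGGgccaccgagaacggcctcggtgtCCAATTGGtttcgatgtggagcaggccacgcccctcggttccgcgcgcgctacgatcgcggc
Acss2: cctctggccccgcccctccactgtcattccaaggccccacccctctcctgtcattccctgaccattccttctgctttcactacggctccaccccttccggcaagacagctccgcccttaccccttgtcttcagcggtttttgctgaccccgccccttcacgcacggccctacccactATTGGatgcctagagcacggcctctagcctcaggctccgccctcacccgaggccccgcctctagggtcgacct

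Most genes of cholesterol synthesis and uptake fell. Of 22 genes, 16 fell and 6 did not pass, with a median of -0.93. *Hmgcs1*, the cytosolic HMG-CoA synthase, had 369.6, 271 and 396 CPM at Pre and 136, 93.7 and 113 CPM at WL2. *Nsdhl*, a sterol dehydrogenase of the later steps, had 45.8, 46.3 and 57.4 CPM at Pre and 17.7, 18.0 and 19.7 CPM at WL2. *Cyp51*, the sterol demethylase, had 40.1, 49.0 and 58.3 CPM at Pre and 22.4, 16.3 and 17.5 CPM at WL2. No WL2 library reached the lowest Pre library in these genes. *Hmgcs1* fell 3.02-fold (log2 fold change -1.60, SE 0.17, edgeR adjusted p = 0.000357), *Nsdhl* fell 2.7-fold (log2 fold change -1.43, SE 0.15, edgeR adjusted p = 0.000269) and *Cyp51* fell 2.63-fold (log2 fold change -1.39, SE 0.18, edgeR adjusted p = 0.000877). The choice of *Nsdhl* and *Cyp51* as examples was made with their values already known. Both genes kept their calls in each of the 9 fits. *Sqle*, squalene epoxidase, a known control point of the pathway, did not pass and is named here because of that. *Sqle* had 17.1, 17.4 and 19.7 CPM at Pre and 16.8, 10.4 and 10.4 CPM at WL2 (log2 fold change -0.53, SE 0.19, edgeR adjusted p = 0.105). Between 14 and 18 members of the list fell with each library left out.

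Of 14 genes that control lipid synthesis, 2 fell and 1 rose (median -0.27). *Srebf1*, the transcription factor that drives fatty acid synthesis, had 353, 420.2 and 340.4 CPM at Pre and 203, 190.3 and 210.4 CPM at WL2, a fall of 1.84-fold (log2 fold change -0.88, SE 0.12, edgeR adjusted p = 0.00111). *Insig1*, a sterol-responsive brake on the same factors and itself one of their targets, had 445, 279.8 and 293 CPM at Pre and 104, 71.6 and 77.0 CPM at WL2, a fall of 4.03-fold (log2 fold change -2.01, SE 0.20, edgeR adjusted p = 0.000254). *Insig2*, its relative, rose slightly (log2 fold change 0.37, SE 0.10, edgeR adjusted p = 0.0444). *Insig2* lost its call without any 1 Pre library, WL1 replicate 1 or 2 or any 1 WL2 library, with log2 fold changes from 0.34 to 0.39 over the 9 fits. *Angptl8*, an insulin-responsive hormone that blocks lipoprotein lipase, had 11.3, 7.88 and 13.3 CPM at Pre and 1.26, 1.42 and 1.45 CPM at WL2, a fall of 7.85-fold (log2 fold change -2.97, SE 0.24, edgeR adjusted p = 6.51e-05). It was counted among 17 genes of fatty acid uptake, of which 4 fell and 1 rose (median -0.29). In that list 2 fell without WL2 replicate 2 or 3, and 2 rose without Pre replicate 1. *Vldlr*, the very low density lipoprotein receptor, fell by 1.10 and *Acsl1*, which activates fatty acids with coenzyme A, by 0.62 on the log2 scale. *Slc27a1*, a fatty acid transporter, rose by 0.81 from 669, 516 and 343 CPM to 1093, 848 and 745 CPM. *Acsl1* lost its call without Pre replicate 1 or WL2 replicate 2 or 3, with log2 fold changes from -0.67 to -0.52 over the 9 fits. *Slc27a1* lost its call without Pre replicate 2 or 3, any 1 WL1 library or any 1 WL2 library, with log2 fold changes from 0.60 to 1.06 over the 9 fits. *Cd36*, the main fatty acid translocase, had 4955, 4186 and 4894 CPM at Pre and 6154, 5153 and 5218 CPM at WL2 and did not pass (log2 fold change 0.24, SE 0.12, edgeR adjusted p = 0.246).

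Enzymes that supply the reducing power for lipid synthesis went the same way. Of 9 genes of the pentose phosphate pathway and NADPH supply, 5 fell, with a median of -0.48, and 3 fell without WL2 replicate 2 or 3. *Pgd*, the second dehydrogenase of the pathway, had 587, 619 and 598 CPM at Pre and 279, 240.1 and 248 CPM at WL2 (log2 fold change -1.23, SE 0.12, edgeR adjusted p = 0.000154). *Taldo1*, a transaldolase, and *Idh1*, the cytosolic isocitrate dehydrogenase, fell by 0.74 and 0.63 on the log2 scale. *Taldo1* lost its call without WL2 replicate 2 or 3, with log2 fold changes from -0.84 to -0.64 over the 9 fits.

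Of 16 genes of triglyceride synthesis, 5 fell and 1 rose (median -0.38). *Dgat2*, which adds the last acyl chain, had 4362, 3799.9 and 3981 CPM at Pre and 703, 829 and 742 CPM at WL2. It fell 5.34-fold (log2 fold change -2.42, SE 0.13, edgeR adjusted p = 1.25e-05), and no WL2 library came near a Pre library. *Agpat2*, the acyltransferase whose loss causes lipodystrophy, had 527, 338 and 344 CPM at Pre and 151, 144 and 121 CPM at WL2 (log2 fold change -1.54, SE 0.20, edgeR adjusted p = 0.000956). *Gpd1*, which makes glycerol 3-phosphate from a glycolytic intermediate, had 939, 1016 and 844 CPM at Pre and 362, 321 and 281 CPM at WL2 (log2 fold change -1.54, SE 0.13, edgeR adjusted p = 9.35e-05). *Pck1*, the gateway enzyme of glyceroneogenesis, which makes glycerol 3-phosphate without sugar, moved the other way with 1292, 1011 and 488 CPM at Pre and 2125, 2361 and 2211 CPM at WL2 (log2 fold change 1.26, SE 0.33, edgeR adjusted p = 0.0367). *Pck1* lost its call without Pre replicate 2 or 3 or any 1 WL2 library, with log2 fold changes from 0.95 to 1.57 over the 9 fits.

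**Figure D2:**
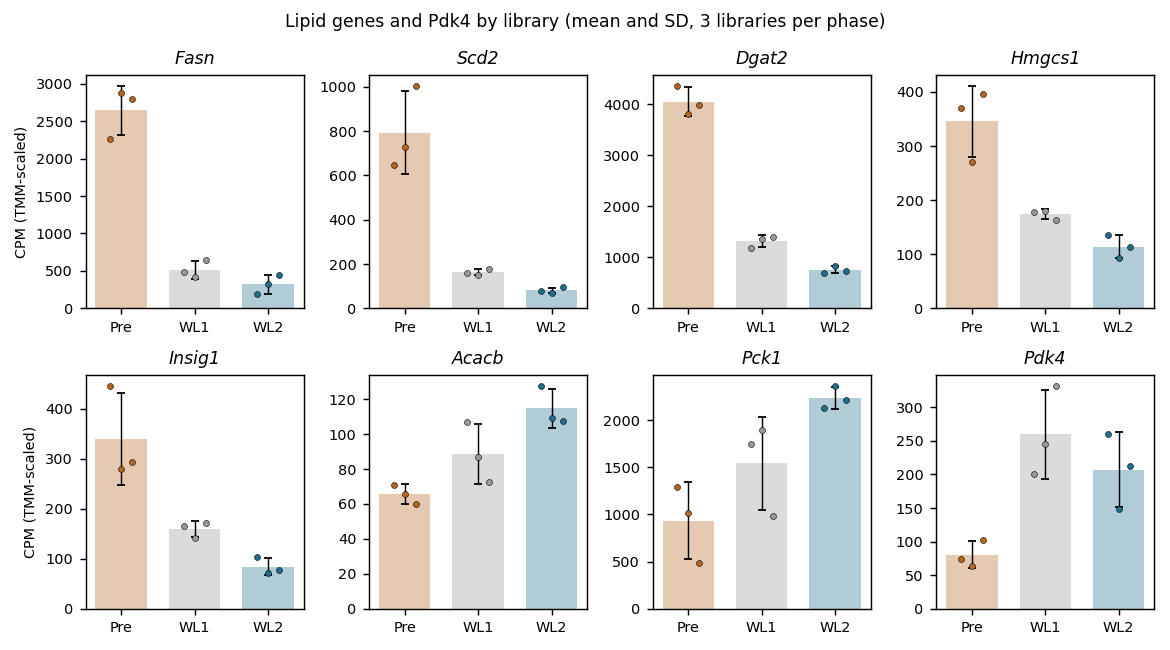
Bars give the mean and whiskers the SD of 3 libraries per phase, and points give each library, in TMM-scaled CPM on linear axes from 0. *Fasn*, *Scd2*, *Dgat2*, *Hmgcs1* and *Insig1* were lower in each WL2 library than in any Pre library, and *Acacb*, *Pck1* and *Pdk4* were higher.

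Of 17 genes of lipolysis and the lipid droplet, 2 fell and 1 rose (median -0.14, 0.02 with library totals alone), and 7 had an unadjusted p under 0.05. *Pnpla2*, the first lipase of the cascade, had 2142, 2181 and 1539 CPM at Pre and 2574, 2592 and 2229.5 CPM at WL2 and *Lipe*, hormone-sensitive lipase, had 1897, 1787 and 1556 CPM at Pre and 1506, 1686 and 1583 CPM at WL2. Neither passed, with log2 fold changes of 0.34 (SE 0.15) and -0.13 (SE 0.14). *Aqp7*, the channel through which glycerol leaves the fat cell, rose from 353, 281 and 273 CPM to 521, 492 and 418 CPM (log2 fold change 0.66, SE 0.17, edgeR adjusted p = 0.0336). *Aqp7* lost its call without Pre replicate 2 or 3 or any 1 WL2 library, with log2 fold changes from 0.59 to 0.78 over the 9 fits. *Bscl2*, which encodes the lipid droplet protein seipin, fell 2.33-fold (log2 fold change -1.22, SE 0.13, edgeR adjusted p = 0.000273). *Cidec*, which fuses small droplets into large ones, fell 1.59-fold (log2 fold change -0.67, SE 0.11, edgeR adjusted p = 0.00456).

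Of 18 genes of adrenergic receptors, which bind adrenaline and noradrenaline, and of cAMP signalling, 2 rose and 4 fell (median 0.07). *Adrb3*, the β3 receptor typical of fat cells, had 553, 437 and 487 CPM at Pre and 923, 1117 and 852 CPM at WL2 (log2 fold change 0.97, SE 0.24, edgeR adjusted p = 0.0301). *Adrb3* lost its call without any 1 Pre library or any 1 WL2 library, with log2 fold changes from 0.85 to 1.06 over the 9 fits. *Adra1a*, an α1 receptor, had 26.0, 17.4 and 17.9 CPM at Pre and 11.3, 11.2 and 12.2 CPM at WL2 (log2 fold change -0.82, SE 0.16, edgeR adjusted p = 0.0112). *Prkar2b*, the regulatory subunit of protein kinase A in fat, had 961, 884 and 853 CPM at Pre and 629.8, 553 and 581 CPM at WL2 (log2 fold change -0.61, SE 0.12, edgeR adjusted p = 0.01). *Adra1a* lost its call without WL2 replicate 2, with log2 fold changes from -0.92 to -0.61 over the 9 fits. *Prkar2b* lost its call without WL2 replicate 2, with log2 fold changes from -0.66 to -0.56 over the 9 fits. The falls in this list numbered 2 without Pre replicate 1 or 2, WL1 replicate 1 or 2, or WL2 replicate 1 or 3, and 0 without WL2 replicate 2. The rises numbered 1 without any 1 Pre or WL2 library.

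Of 26 genes of fatty acid oxidation, 1 rose and 1 fell (median -0.14, 0.006 with library totals alone), and 12 had an unadjusted p under 0.05. The rise was in *Pdk4*, the kinase that shuts off pyruvate oxidation, with 74.7, 64.1 and 103 CPM at Pre and 261, 149 and 212 CPM at WL2 (log2 fold change 1.36, SE 0.25, edgeR adjusted p = 0.00794). The fall was in *Decr1* (-0.45 on the log2 scale), which handles unsaturated fatty acids. *Decr1* lost its call without Pre replicate 1 or WL2 replicate 2 or 3, with log2 fold changes from -0.51 to -0.38 over the 9 fits. The list gave 3 falls without Pre replicate 2 or 3. *Ppara*, the transcription factor of fatty acid oxidation, had 2.54, 2.37 and 1.29 CPM at Pre and 1.04, 0.963 and 1.39 CPM at WL2 (log2 fold change -0.86, SE 0.36, edgeR adjusted p = 0.162) and was singled out after its values were seen. Of 8 genes of ketone body metabolism, 1 rose and 1 fell (median 0.007), with 2 rises without WL2 replicate 3. *Oxct1*, which lets a cell use ketone bodies, had 465, 393 and 482 CPM at Pre and 259, 266 and 277 CPM at WL2 (log2 fold change -0.74, SE 0.11, edgeR adjusted p = 0.0022).

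Of 20 genes of glucose uptake and glycolysis, 8 fell, with a median of -0.49, and 5 fell without WL2 replicate 2. *Tpi1*, triosephosphate isomerase, had 770.2, 728 and 714 CPM at Pre and 295, 258 and 244 CPM at WL2 (log2 fold change -1.47, SE 0.14, edgeR adjusted p = 0.000129). *Aldoa*, aldolase A, and *Ldha*, lactate dehydrogenase A, fell 1.89-fold and 1.85-fold. *Slc2a4*, the insulin-responsive glucose transporter GLUT4, was singled out after its values were seen. It had 216, 235 and 135 CPM at Pre and 148, 212 and 160.2 CPM at WL2, with groups that overlapped (log2 fold change -0.17, SE 0.22, edgeR adjusted p = 0.659). *Gys2*, a glycogen synthase best known from liver, was chosen after its values were seen, and had 16.0, 22.6 and 29.3 CPM at Pre and 0.931, 1.19 and 1.04 CPM at WL2 (log2 fold change -4.42, SE 0.40, edgeR adjusted p = 0.000123). Of 20 genes of insulin signalling, 1 rose and 2 fell (median 0.02), and each of these calls was lost in at least 1 of the 9 fits. *Igf1r*, the receptor of insulin-like growth factor 1, rose by 0.54, and *Akt2*, the kinase below the insulin receptor, and *Trib1* fell by 0.40 and 0.43 on the log2 scale. *Igf1r* lost its call without any 1 Pre library, WL1 replicate 2 or 3 or any 1 WL2 library, with log2 fold changes from 0.49 to 0.61 over the 9 fits. *Akt2* lost its call without Pre replicate 1 or 2, any 1 WL1 library or any 1 WL2 library, with log2 fold changes from -0.47 to -0.35 over the 9 fits. *Trib1* lost its call without Pre replicate 2 or 3, any 1 WL1 library or any 1 WL2 library, with log2 fold changes from -0.51 to -0.35 over the 9 fits.

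Of 13 genes of the mitochondrial chromosome, 12 had log2 fold changes below 0 and 8 fell, with a median of -0.60. *mt-Nd1*, a subunit of complex I, had 4481, 5143 and 3895 CPM at Pre and 2442, 2454 and 2649.9 CPM at WL2 (log2 fold change -0.84, SE 0.13, edgeR adjusted p = 0.00242). The call on *mt-Nd1* held in each of the 9 fits. *mt-Nd4l* lost its call without Pre replicate 2, any 1 WL1 library or any 1 WL2 library, with log2 fold changes from -1.40 to -0.71 over the 9 fits. *mt-Atp6* lost its call without Pre replicate 1 or 2, any 1 WL1 library or any 1 WL2 library, with log2 fold changes from -1.37 to -0.77 over the 9 fits. *mt-Atp6* overlapped between the groups, with 50.8, 67.0 and 26.9 CPM at Pre and 18.0, 22.7 and 27.6 CPM at WL2. The falls numbered 3 without Pre replicate 1 or 2 or WL1 replicate 2, 5 without WL1 replicate 1 or 3, 2 without WL2 replicate 1 or 2 and 4 without WL2 replicate 3. Of 77 nuclear genes of oxidative phosphorylation, 5 fell, a share near the 6.66% of all genes tested. Of these 77, 66 had a log2 fold change below 0 (median -0.23). The median of all genes was 0.008, or 0.158 with library totals alone. *Cox8b* and *Cox7a1*, cytochrome oxidase subunits typical of muscle and brown fat, had 11.6, 7.49 and 8.86 CPM at Pre and 2.96, 2.38 and 2.08 CPM at WL2 and 5.25, 3.09 and 3.55 CPM at Pre and 1.31, 1.25 and 1.04 CPM at WL2 in that order. *Uqcrq*, of complex III, fell by 0.72. *Cox8b* lost its call without WL2 replicate 2 or 3, with log2 fold changes from -2.06 to -1.72 over the 9 fits. *Cox7a1* lost its call without Pre replicate 1 or WL2 replicate 2 or 3, with log2 fold changes from -1.86 to -1.46 over the 9 fits. *Uqcrq* lost its call without Pre replicate 1 or 2 or WL2 replicate 2 or 3, with log2 fold changes from -0.86 to -0.55 over the 9 fits. This list gave 2 falls without Pre replicate 1 and 1 without WL2 replicate 2 or 3. Of 12 thermogenic genes, 3 fell (median -0.31), or 1 without WL2 replicate 2 and 0 without WL2 replicate 3. *Dio2*, which activates thyroid hormone, fell from a level below 2 CPM in each Pre library (log2 fold change -2.49, SE 0.63, edgeR adjusted p = 0.0329). *Dio2* lost its call without Pre replicate 2 or 3, WL1 replicate 2 or WL2 replicate 1 or 3, with log2 fold changes from -3.28 to -2.12 over the 9 fits.

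Of 15 adipokines, the hormones that fat secretes, 2 fell and 1 rose (median -0.19). *Lep*, leptin, had 5735, 4612 and 5943 CPM at Pre and 1155, 1390.2 and 1439.6 CPM at WL2, a fall of 4.09-fold with no overlap (log2 fold change -2.03, SE 0.14, edgeR adjusted p = 2.03e-05). *Adipoq*, adiponectin, had 3344, 2804 and 2123 CPM at Pre and 3256, 3459 and 2822 CPM at WL2 and did not pass (log2 fold change 0.21, SE 0.18, edgeR adjusted p = 0.508). *Cfd*, the complement factor adipsin, had 1807, 1326 and 815 CPM at Pre and 3160.5, 4393 and 4466 CPM at WL2 (log2 fold change 1.61, SE 0.40, edgeR adjusted p = 0.0299). *Cfd* lost its call without Pre replicate 2 or 3 or WL2 replicate 2 or 3, with log2 fold changes from 1.35 to 1.90 over the 9 fits. *Rbp4*, retinol binding protein 4, fell by 0.72 on the log2 scale. *Rbp4* lost its call without Pre replicate 1 or 2 or any 1 WL2 library, with log2 fold changes from -0.82 to -0.62 over the 9 fits. Of 5 genes known to follow fat mass expansion, 3 fell (median -0.82). *Mest*, an imprinted gene that rises as fat cells enlarge, had 814, 646 and 706 CPM at Pre and 91.4, 61.4 and 88.6 CPM at WL2, a fall of 8.97-fold (log2 fold change -3.17, SE 0.17, edgeR adjusted p = 1.25e-05), and its mean at WL1 was 432 CPM. *Npr3*, the clearance receptor for natriuretic peptides, had 1593, 1245 and 1606 CPM at Pre and 795, 857 and 864 CPM at WL2 (log2 fold change -0.82, SE 0.17, edgeR adjusted p = 0.0124). *Npr3* lost its call without WL2 replicate 2, with log2 fold changes from -0.93 to -0.76 over the 9 fits. Of the 17 adipocyte markers, 3 rose, 3 fell and 11 did not pass, with a median of 0.07. *Slc36a2*, an amino acid transporter of fat cells, fell 2.46-fold. The rises, in *Adrb3*, *Aqp7* and *Cfd*, numbered 0 without Pre replicate 2 or 3 or WL2 replicate 2 or 3 and 1 without WL2 replicate 1. *Pparg*, the master regulator of fat cell identity, had 219, 181 and 189 CPM at Pre and 206, 254 and 219 CPM at WL2 (log2 fold change 0.21, SE 0.13, edgeR adjusted p = 0.322).

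**Figure D3:**
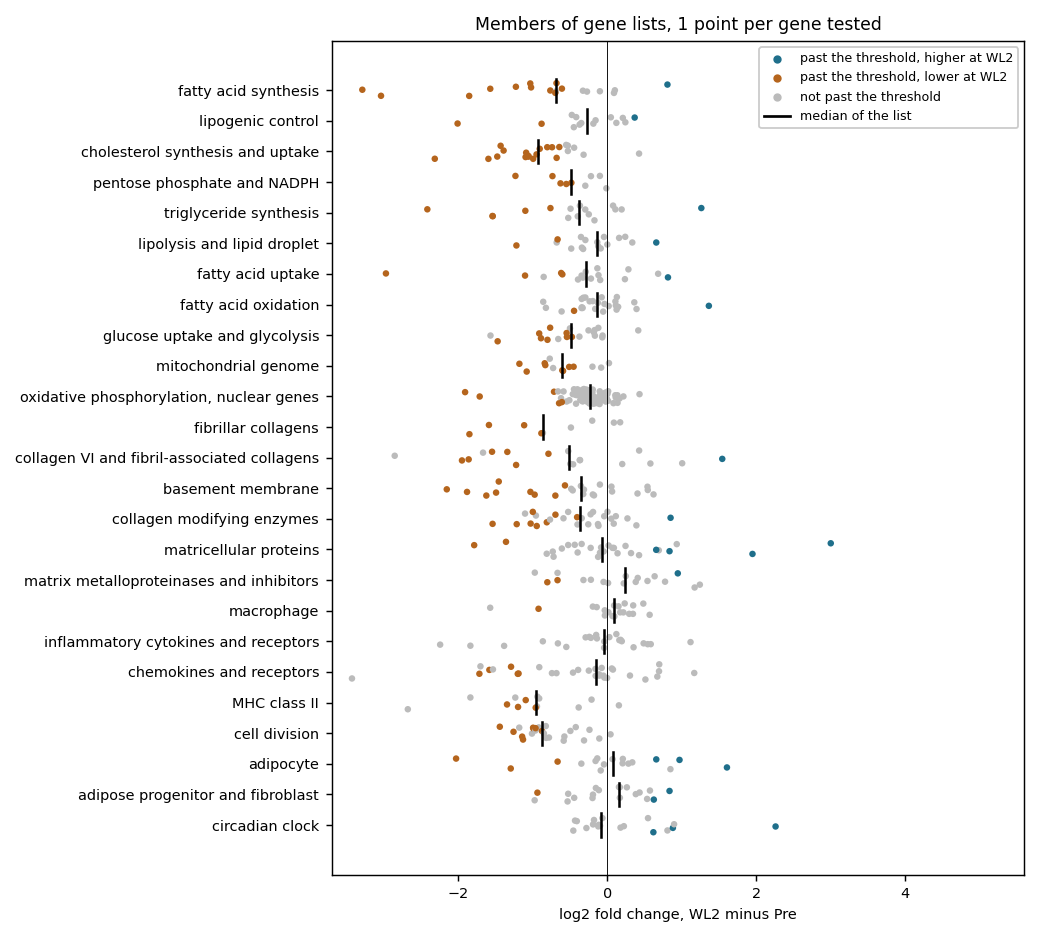
Each point is 1 gene of a list, placed by its log2 fold change of WL2 minus Pre, with genes past the threshold coloured by direction and the median of each list as a bar. Among the 25 lists drawn, medians are lowest for MHC class II, cholesterol synthesis, cell division and fibrillar collagens, while those of the macrophage and adipocyte lists lie near 0.

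Collagen genes of several classes fell. Of 9 fibrillar collagen chains, 4 fell, with a median of -0.86. *Col5a3*, *Col5a1* and *Col5a2* are the chains of type V collagen, a minor component that starts fibrils. *Col5a3* had 1060.1, 1038 and 1174 CPM at Pre and 251, 313 and 341 CPM at WL2, *Col5a1* had 582, 662 and 739 CPM at Pre and 205, 208 and 246 CPM at WL2 and *Col5a2* had 277, 249.9 and 355 CPM at Pre and 130.1, 127 and 149.5 CPM at WL2. The 3 chains separated the groups in every library, with falls of 3.61-fold (log2 fold change -1.85, SE 0.14, edgeR adjusted p = 4.31e-05), 3.01-fold (log2 fold change -1.59, SE 0.14, edgeR adjusted p = 0.000103) and 2.17-fold (log2 fold change -1.12, SE 0.18, edgeR adjusted p = 0.00365). The chains of the abundant fibrils had log2 fold changes nearer to 0. *Col3a1* had 1628, 2165 and 2299 CPM at Pre and 1201, 1015 and 1080.4 CPM at WL2 (log2 fold change -0.89, SE 0.24, edgeR adjusted p = 0.0416). *Col3a1* lost its call without Pre replicate 2 or 3 or any 1 WL2 library, with log2 fold changes from -1.02 to -0.79 over the 9 fits. *Col1a1* had 549, 918 and 779 CPM at Pre and 444, 367 and 422 CPM at WL2 and narrowly missed the threshold (log2 fold change -0.87, SE 0.24, edgeR adjusted p = 0.0505). *Col1a2*, singled out after its values were seen, had 715, 982 and 925 CPM at Pre and 621, 589.6 and 658 CPM at WL2 (log2 fold change -0.49, SE 0.20, edgeR adjusted p = 0.163). Whether type V chains fell more than type I chains was not tested. Per length, the mean level of *Col5a3* went from 150 FPKM at Pre to 41.7 FPKM at WL2, and that of *Col1a1* from 107 to 58.7 FPKM.

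Of 18 chains of collagen VI and the fibril-associated collagens, 6 fell and 1 rose (median -0.51). *Col6a2* and *Col6a1* form the beaded filaments of type VI collagen around fat cells. *Col6a2* had 1502, 1757 and 1735 CPM at Pre and 407, 409 and 474 CPM at WL2, a fall of 3.87-fold (log2 fold change -1.95, SE 0.14, edgeR adjusted p = 3.31e-05). *Col6a1* had 1426, 1769 and 1627 CPM at Pre and 530.0, 525 and 594 CPM at WL2, a fall of 2.92-fold (log2 fold change -1.55, SE 0.13, edgeR adjusted p = 6.62e-05). *Col12a1*, a chain that sits on fibril surfaces, fell 3.64-fold (log2 fold change -1.86, SE 0.22, edgeR adjusted p = 0.000579). *Col20a1*, of low abundance, rose by 1.54 on the log2 scale. *Col20a1* lost its call without Pre replicate 1 or 2 or WL2 replicate 2 or 3, with log2 fold changes from 1.27 to 2.05 over the 9 fits. The basement membrane list had 23 genes, of which 9 fell (median -0.35). *Col4a2*, a main chain of the basement membrane network, had 2299, 2344 and 2379.9 CPM at Pre and 686, 745 and 846 CPM at WL2, a fall of 3.09-fold (log2 fold change -1.63, SE 0.12, edgeR adjusted p = 3.54e-05). *Col15a1*, which links the membrane to the fibrils, had 1118, 1279 and 1276 CPM at Pre and 285, 331 and 379 CPM at WL2 (log2 fold change -1.88, SE 0.13, edgeR adjusted p = 2.03e-05). *Lamb3*, a laminin chain known from epithelia, had 39.9, 27.9 and 37.2 CPM at Pre and 8.76, 7.59 and 7.18 CPM at WL2, and its mean at WL1 was 32.7 CPM (log2 fold change -2.16, SE 0.19, edgeR adjusted p = 9.35e-05). Leaving out 1 library at a time gave 5 to 6 falls in the collagen VI list and 7 to 9 in the basement membrane list.

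A minority of the listed genes that fold, trim and cross-link collagen fell, and the falls named here concern folding and trimming. Of 28 genes, 8 fell and 1 rose, with a median of -0.37, and 7 to 9 fell with each library left out. *Serpinh1*, the collagen chaperone HSP47, had 1204, 1269 and 1453 CPM at Pre and 610.5, 507 and 572 CPM at WL2 (log2 fold change -1.22, SE 0.12, edgeR adjusted p = 0.000258). *Pcolce2*, an enhancer of procollagen trimming, had 158, 139 and 145 CPM at Pre and 48.2, 51.4 and 52.5 CPM at WL2 (log2 fold change -1.54, SE 0.10, edgeR adjusted p = 1.51e-05). *Adamts2*, which removes the amino end of procollagen, fell 2.04-fold (log2 fold change -1.03, SE 0.13, edgeR adjusted p = 0.000837). *P3h4*, a partner of prolyl hydroxylase, rose by 0.85 on the log2 scale. *P3h4* lost its call without WL2 replicate 2 or 3, with log2 fold changes from 0.67 to 0.97 over the 9 fits. Of 18 matrix metalloproteinases and their inhibitors, 1 rose and 2 fell (median 0.23). *Mmp11* had 25.6, 17.3 and 20.6 CPM at Pre and 43.1, 52.2 and 26.9 CPM at WL2 (log2 fold change 0.95, SE 0.22, edgeR adjusted p = 0.0238). *Mmp11* lost its call without Pre replicate 2 or 3 or WL2 replicate 1 or 2, with log2 fold changes from 0.73 to 1.17 over the 9 fits. *Mmp14*, a membrane-bound collagenase, had 79.3, 78.6 and 105 CPM at Pre and 88.8, 104 and 119 CPM at WL2, *Mmp9*, a gelatinase, had 1.95, 16.1 and 4.62 CPM at Pre and 9.14, 12.2 and 17.5 CPM at WL2, and *Timp1*, an inhibitor of these enzymes, had 10.4, 12.1 and 14.1 CPM at Pre and 12.3, 4.53 and 6.14 CPM at WL2. The groups overlapped in those 3 genes, in *Mmp9* through Pre replicate 2 alone. None of the 3 passed in the fit of all 9 libraries, with SEs of 0.18, 0.59 and 0.43 on the log2 scale. *Mmp15* and *Mmp28* fell by 0.81 and 0.67. *Mmp15* lost its call without Pre replicate 1 or 2 or any 1 WL2 library, with log2 fold changes from -0.92 to -0.71 over the 9 fits. *Mmp28* lost its call without WL2 replicate 1 or 2, with log2 fold changes from -0.79 to -0.57 over the 9 fits. The list gave 0 falls without WL2 replicate 1 or 2 and 1 without Pre replicate 1 or 2 or WL2 replicate 3, and it gave 2 rises without Pre replicate 2, WL1 replicate 1 or 3 or WL2 replicate 1 and 0 without Pre replicate 3 or WL2 replicate 2.

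Matricellular proteins, which sit in the matrix and signal to cells, moved in both directions. Of 28, 4 rose and 2 fell (median -0.07, 0.09 with library totals alone), with 2 rises without WL2 replicate 2 and 4 falls without Pre replicate 1. The largest rises were those of *Thbs2* and *Thbs1*, given above. Per length, *Thbs1* went from 59.9 to 231 FPKM and *Thbs2* from 6.65 to 53.1 FPKM. *Dcn*, the fibril-binding proteoglycan decorin, had 561, 691 and 849.9 CPM at Pre and 1027, 1277 and 1447 CPM at WL2 (log2 fold change 0.84, SE 0.19, edgeR adjusted p = 0.0215). *Dcn* lost its call without Pre replicate 1 or 2 or WL2 replicate 2 or 3, with log2 fold changes from 0.70 to 1.00 over the 9 fits. *Sparc*, a collagen-binding glycoprotein, had 9526, 6035 and 8370.1 CPM at Pre and 3249, 3088 and 2978 CPM at WL2, a fall of 2.57-fold (log2 fold change -1.36, SE 0.16, edgeR adjusted p = 0.000567), and its mean at WL1 was 6924 CPM. *Ccn5*, a connective tissue growth factor relative, had 78.1, 97.4 and 57.6 CPM at Pre and 26.8, 23.5 and 17.1 CPM at WL2 (log2 fold change -1.79, SE 0.25, edgeR adjusted p = 0.00183). Of 22 genes of TGF-beta signalling, the main inducer of collagen synthesis, 1 fell (median -0.10, 0.05 with library totals alone), with 4 falls without Pre replicate 3 and 2 without WL1 replicate 2. *Ltbp3*, which tethers latent TGF-beta, fell 1.9-fold (log2 fold change -0.93, SE 0.12, edgeR adjusted p = 0.000846). *Tgfb1*, the main ligand, had 88.9, 156 and 92.9 CPM at Pre and 98.1, 79.0 and 68.4 CPM at WL2, and its groups overlapped. Of 19 markers of adipose progenitors and fibroblasts, 2 rose and 1 fell, with a median of 0.16. *Anxa3* rose by 0.62 and *Thy1* fell by 0.94 on the log2 scale. Their summed level was 1892 to 2338 CPM at Pre and 2445 to 2944 CPM at WL2. The rises numbered 1 without Pre replicate 1 or WL2 replicate 2 or 3, and the falls 2 without WL1 replicate 3.

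**Figure D4:**
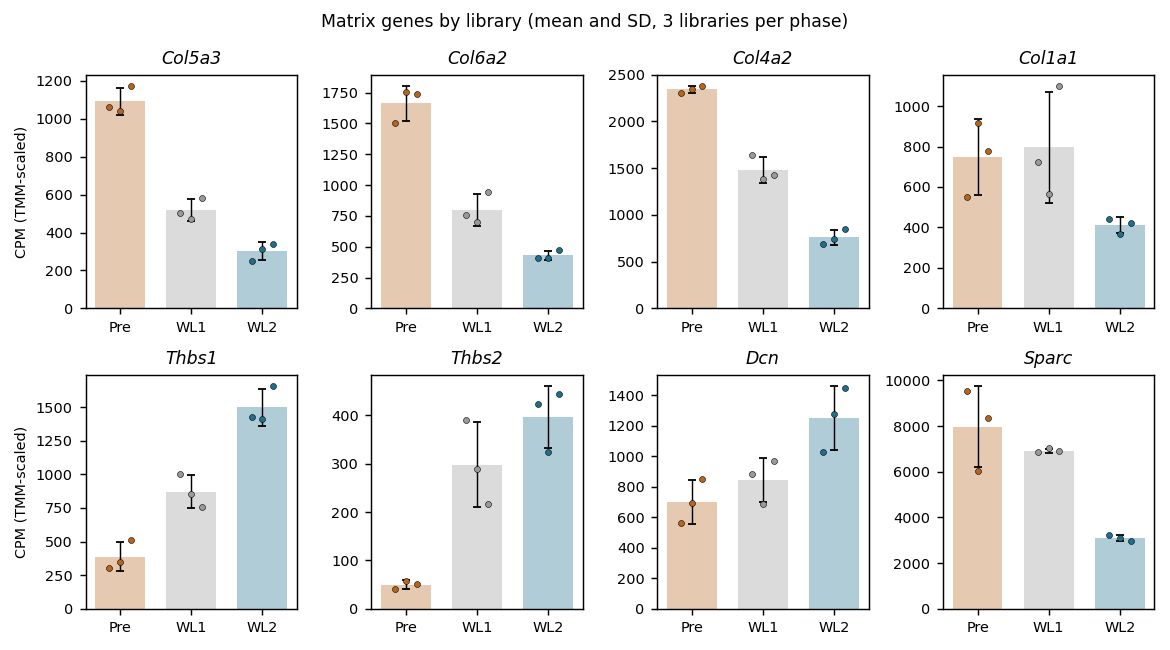
Bars give the mean and whiskers the SD of 3 libraries per phase, and points give each library, in TMM-scaled CPM on linear axes from 0. *Col5a3*, *Col6a2*, *Col4a2* and *Sparc* were lower in each WL2 library than in any Pre library, *Thbs1*, *Thbs2* and *Dcn* were higher, and *Col1a1* was lower without passing the threshold.

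Summed macrophage markers overlapped between the groups. Of 19 markers, 1 fell (median 0.09), namely *Retnla*, a marker of alternatively activated macrophages. *Retnla* lost its call without Pre replicate 2 or 3, any 1 WL1 library or WL2 replicate 1 or 2, with log2 fold changes from -1.25 to -0.68 over the 9 fits. The markers summed to 1985, 3368 and 3044 CPM in the Pre libraries and 3256, 2099.5 and 2498 CPM in the WL2 libraries. *Adgre1*, which encodes F4/80, had 67.4, 141 and 137 CPM at Pre and 199, 89.8 and 93.5 CPM at WL2, and *Cd68*, singled out after its values were seen, had 111, 193 and 179.6 CPM at Pre and 362, 126 and 125 CPM at WL2. In both genes WL2 replicate 1 lay above the other WL2 libraries, and their log2 fold changes were 0.15 (SE 0.39) and 0.34 (SE 0.41). *Itgax*, which encodes CD11c, had 61.6, 111 and 108 CPM at Pre and 178, 64.1 and 68.3 CPM at WL2. Of 21 genes of lipid-associated macrophages, 1 fell (*Lgals1*, a galectin, -0.87 on the log2 scale), and the median was 0.16. Without WL2 replicate 1 that median was -0.39, with 3 falls, and there were 2 falls without Pre replicate 2. *Cd9*, of the same list, had 62.3, 71.1 and 71.1 CPM at Pre and 144, 74.0 and 76.7 CPM at WL2.

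Inflammatory signals were mixed. Of 23 inflammatory cytokines and receptors, 0 passed in edgeR (median -0.04, 0.10 with library totals alone), 2 had an unadjusted p under 0.05, 2 fell in DESeq2 and 0 passed in limma. Without Pre replicate 1, 1 fell in edgeR. *Tnf*, which encodes tumour necrosis factor, had 1.42, 1.71 and 1.62 CPM at Pre and 1.26, 1.30 and 1.51 CPM at WL2, and the receptors *Tnfrsf1a* and *Tnfrsf1b* had log2 fold changes of -0.24 (SE 0.10) and -0.29 (SE 0.28). Of 30 chemokines and receptors, 5 fell (median -0.16), with 3 falls without Pre replicate 3 or WL2 replicate 3 and 2 without WL2 replicate 2. Without Pre replicate 3, 1 rose. *Ccl2*, which draws monocytes into tissue, had 40.7, 40.9 and 83.5 CPM at Pre and 31.0, 17.1 and 24.3 CPM at WL2 (log2 fold change -1.19, SE 0.30, edgeR adjusted p = 0.0305). *Ccl8* had 15.3, 20.3 and 15.1 CPM at Pre and 5.86, 3.68 and 5.85 CPM at WL2 (log2 fold change -1.72, SE 0.22, edgeR adjusted p = 0.000902), and *Ccl7* had 26.6, 26.0 and 60.7 CPM at Pre and 13.2, 8.72 and 15.9 CPM at WL2 (log2 fold change -1.58, SE 0.33, edgeR adjusted p = 0.0153). *Cx3cr1*, the fractalkine receptor, fell by 1.29 on the log2 scale. *Ccl2* lost its call without Pre replicate 3 or WL2 replicate 2 or 3, with log2 fold changes from -1.41 to -0.76 over the 9 fits. *Ccl7* lost its call without WL2 replicate 2, with log2 fold changes from -1.79 to -1.06 over the 9 fits. *Cx3cr1* lost its call without Pre replicate 3 or any 1 WL2 library, with log2 fold changes from -1.51 to -1.07 over the 9 fits. *Saa3* and *Orm1*, acute phase proteins made in inflamed fat, are named here because of their values. *Saa3* had 63.3, 62.3 and 97.7 CPM at Pre and 4.93, 4.14 and 4.11 CPM at WL2 (log2 fold change -4.08, SE 0.38, edgeR adjusted p = 0.000148). *Orm1* had 379, 256 and 318 CPM at Pre and 52.0, 51.2 and 65.1 CPM at WL2 (log2 fold change -2.50, SE 0.17, edgeR adjusted p = 1.81e-05). Both kept their calls in each of the 9 fits. Of 26 interferon response genes, 1 rose, namely *Oas2* (median 0.16). *Oas2* lost its call without Pre replicate 1 or 2, WL1 replicate 2 or any 1 WL2 library, with log2 fold changes from 0.59 to 1.05 over the 9 fits.

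Of 13 genes of MHC class II, 4 fell, with a median of -0.96. *Ciita*, the switch that turns the class II genes on, had 24.7, 44.7 and 32.7 CPM at Pre and 15.5, 13.5 and 11.1 CPM at WL2 (log2 fold change -1.35, SE 0.23, edgeR adjusted p = 0.00475). *H2-DMb1* had 66.4, 101 and 82.1 CPM at Pre and 49.1, 30.9 and 28.5 CPM at WL2 and *H2-Ab1* had 452, 965 and 607 CPM at Pre and 370.4, 316 and 261 CPM at WL2. *H2-Aa*, singled out after its values were seen, had 427, 1046 and 585 CPM at Pre and 437, 347 and 289 CPM at WL2 with overlap (log2 fold change -0.94, SE 0.31, edgeR adjusted p = 0.0822). Pre replicate 2 was the highest library in all 4 genes. *H2-DMb1* lost its call without WL2 replicate 2 or 3, with log2 fold changes from -1.48 to -1.04 over the 9 fits. *H2-Ab1* lost its call without Pre replicate 2 or WL2 replicate 2 or 3, with log2 fold changes from -1.32 to -0.75 over the 9 fits. The falls numbered 2 and the median was -0.55 without Pre replicate 2, and they numbered 8 without Pre replicate 1 and 1 without WL2 replicate 2 or 3. Of 15 B and plasma cell markers, 1 fell, the immunoglobulin heavy chain *Ighm*, with 1119.8, 2502 and 1246 CPM at Pre and 234, 233 and 137 CPM at WL2 (log2 fold change -3.01, SE 0.37, edgeR adjusted p = 0.000793). That call held in each of the 9 fits. The median of the list was -2.08, and 1.53 without Pre replicate 2, where 1 marker rose. Of 18 T and NK cell markers, 0 passed in edgeR, 7 had an unadjusted p under 0.05, 2 fell in DESeq2 and 0 passed in limma. In edgeR, 3 fell without Pre replicate 1 and 1 without Pre replicate 3. The median of the list was -1.09, and -0.01 without Pre replicate 2. *Cd2*, a T cell adhesion protein, had 3.24, 17.7 and 6.28 CPM at Pre and 3.89, 3.80 and 4.75 CPM at WL2, and *Il7r*, an interleukin receptor of lymphocytes, had 11.7, 24.4 and 28.3 CPM at Pre and 70.1, 23.1 and 25.0 CPM at WL2. The 10 markers of lymph vessels and lymph nodes, of which 0 passed in edgeR, DESeq2 or limma and 0 had an unadjusted p under 0.05, summed to 165, 327 and 148 CPM at Pre and 151 to 191 CPM at WL2, with medians of -0.62 and, without Pre replicate 2, 0.39. The vessel markers *Lyve1* and *Pdpn* had log2 fold changes of 0.35 (SE 0.28) and 0.19 (SE 0.33). The part of lymphoid tissue in these falls was not tested.

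Of the remaining immune lists, 6 neutrophil markers held 1 fall, *S100a8*, with 17.6, 11.6 and 16.3 CPM at Pre and 1.70, 0.0566 and 0.927 CPM at WL2 (log2 fold change -4.07, SE 0.59, edgeR adjusted p = 0.00202). The neutrophil median was 0.64, and 1 marker rose without Pre replicate 2. Of 13 markers of eosinophils, mast cells and type 2 lymphoid cells, 1 fell, *Ear2*, one of a cluster of near-identical genes (median 0.35), and 1 rose without Pre replicate 2 or 3. *Ear2* lost its call without WL2 replicate 2 or 3, with log2 fold changes from -0.97 to -0.65 over the 9 fits. Of 10 dendritic cell markers, 1 fell, *Cd209a* (median -0.46). *Cd209a* lost its call without Pre replicate 2 or 3, any 1 WL1 library or any 1 WL2 library, with log2 fold changes from -0.76 to -0.49 over the 9 fits. Of 20 complement genes, 3 rose and 2 fell (median -0.02, 0.13 with library totals alone and 0.001 with upper quartile scaling). *C2* had 26.5, 26.9 and 25.7 CPM at Pre and 49.7, 58.1 and 74.5 CPM at WL2 (log2 fold change 1.20, SE 0.18, edgeR adjusted p = 0.00252), *C6*, of the membrane attack complex, had 41.2, 37.1 and 46.5 CPM at Pre and 6.41, 6.85 and 10.4 CPM at WL2 (log2 fold change -2.40, SE 0.20, edgeR adjusted p = 7.15e-05), and *Cfb* fell 2.25-fold. In each of these 3 genes the WL2 and Pre libraries did not overlap.

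Of 25 cell division genes, 8 fell, with a median of -0.88. *Cenpf*, of the kinetochore, had 5.66, 2.15 and 4.85 CPM at Pre and 1.31, 1.25 and 2.08 CPM at WL2, *Cdc20*, an activator of the anaphase-promoting complex, had 7.37, 7.66 and 6.09 CPM at Pre and 4.22, 3.29 and 2.03 CPM at WL2, and *Rrm2*, of ribonucleotide reductase, had 12.0, 10.1 and 10.3 CPM at Pre and 7.94, 2.38 and 3.19 CPM at WL2. WL2 replicate 1 was the highest WL2 library in the last 2 genes. *Cenpf* lost its call without Pre replicate 1 or 3, WL1 replicate 2 or WL2 replicate 1 or 2, with log2 fold changes from -1.76 to -1.18 over the 9 fits. *Cdc20* lost its call without WL2 replicate 2, with log2 fold changes from -1.40 to -0.91 over the 9 fits. *Rrm2* lost its call without any 1 Pre library, any 1 WL1 library or WL2 replicate 2 or 3, with log2 fold changes from -1.96 to -0.95 over the 9 fits. The falls numbered 16 without WL2 replicate 1, 0 without WL2 replicate 2, 2 without Pre replicate 3 or WL2 replicate 3, 3 without WL1 replicate 2 and 5 without Pre replicate 1, WL1 replicate 1 or WL1 replicate 3, so that this count rested on single libraries.

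A smaller number of regulatory genes rose. Of 17 genes that respond to glucocorticoids and FoxO factors, which are active in the fasted state, 3 rose (median 0.26). *Sgk1*, a kinase induced by glucocorticoids, had 74.9, 72.5 and 101 CPM at Pre and 197, 167 and 204 CPM at WL2 (log2 fold change 1.19, SE 0.16, edgeR adjusted p = 0.00109). *Txnip*, an inhibitor of thioredoxin and of glucose uptake, had 1360.4, 1183 and 1312 CPM at Pre and 2469, 2546 and 2568 CPM at WL2 (log2 fold change 0.98, SE 0.12, edgeR adjusted p = 0.000842). *Klf9*, a transcription factor, rose by 0.71 on the log2 scale. *Klf9* lost its call without Pre replicate 1 or 2 or WL2 replicate 3, with log2 fold changes from 0.58 to 0.83 over the 9 fits. Of 18 circadian clock genes, 3 rose (median -0.08, 0.07 with library totals alone), with 1 rise without WL2 replicate 3. *Per2*, a repressor of the clock, rose by 0.88 on the log2 scale. *Per2* lost its call without Pre replicate 1 or 2 or WL2 replicate 1 or 3, with log2 fold changes from 0.74 to 1.04 over the 9 fits. The labels do not give the hour at which tissue was taken. Of 22 immediate early response genes, 2 rose (median 0.15), or 1 without Pre replicate 1 or WL2 replicate 2 or 3. *Klf4* rose by 0.75 and *Klf6* by 0.44 on the log2 scale. *Klf6* lost its call without Pre replicate 1 or 2 or WL2 replicate 2 or 3, with log2 fold changes from 0.39 to 0.51 over the 9 fits.

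Of 15 genes of the growth hormone and IGF axis, 3 fell and 1 rose (median -0.02, 0.13 with library totals alone and 0.003 with upper quartile scaling). The rise was in *Igf1r*, whose lost calls are given above. *Igfals*, which holds insulin-like growth factors in the circulation, had 151, 117 and 127 CPM at Pre and 13.1, 24.5 and 21.6 CPM at WL2, a fall of 6.66-fold (log2 fold change -2.74, SE 0.21, edgeR adjusted p = 4.39e-05). *Igf1* itself had 189, 179 and 230.5 CPM at Pre and 136, 117 and 122 CPM at WL2 (log2 fold change -0.68, SE 0.12, edgeR adjusted p = 0.00592). *Stat5a*, which carries the growth hormone signal, fell by 0.43 on the log2 scale. *Stat5a* lost its call without Pre replicate 1 or any 1 WL2 library, with log2 fold changes from -0.49 to -0.38 over the 9 fits. Of 22 genes of branched-chain amino acid breakdown, 2 rose (median -0.001, 0.15 with library totals alone and 0.02 with upper quartile scaling). *Aldh6a1* and *Ppm1k*, the phosphatase that activates the rate-setting dehydrogenase, rose by 0.61 and 0.65. *Aldh6a1* lost its call without Pre replicate 2 or 3 or WL2 replicate 2 or 3, with log2 fold changes from 0.54 to 0.71 over the 9 fits. *Ppm1k* lost its call without Pre replicate 1 or 2 or WL2 replicate 1 or 2, with log2 fold changes from 0.55 to 0.73 over the 9 fits. Of 15 iron genes, 2 fell and 1 rose (median -0.04, 0.11 with library totals alone). *Tfrc*, the transferrin receptor, had 33.1, 28.2 and 40.1 CPM at Pre and 21.6, 15.8 and 17.7 CPM at WL2 (log2 fold change -0.88, SE 0.16, edgeR adjusted p = 0.00721), *Steap4*, a metalloreductase of fat, fell 1.79-fold, and *Cp*, ceruloplasmin, rose by 1.00. *Cp* lost its call without Pre replicate 1 or 2 or WL2 replicate 2 or 3, with log2 fold changes from 0.81 to 1.19 over the 9 fits. Of 27 lysosomal genes, 4 fell and 1 rose (median -0.12, 0.02 with library totals alone). *Neu1*, a sialidase, rose by 0.55 and kept its call in each of the 9 fits. *Npc2*, a carrier of cholesterol, and *Smpd1*, acid sphingomyelinase, fell by 0.65 and 0.43 on the log2 scale. *Npc2* lost its call without Pre replicate 1 or 3 or WL2 replicate 2 or 3, with log2 fold changes from -0.76 to -0.56 over the 9 fits. *Smpd1* lost its call without Pre replicate 1 or 2, WL1 replicate 1 or 3 or any 1 WL2 library, with log2 fold changes from -0.51 to -0.38 over the 9 fits. The falls numbered 0 without WL2 replicate 2 or 3, 1 without any 1 Pre library and 2 without WL1 replicate 1 or 2 or WL2 replicate 1. Of 23 Wnt pathway genes, 2 fell, the inhibitor *Wif1* and the ligand *Wnt5a* (median -0.23), and 1 rose without Pre replicate 1 or 2. *Wif1* lost its call without any 1 Pre library, any 1 WL1 library or any 1 WL2 library, with log2 fold changes from -1.86 to -1.32 over the 9 fits. *Wnt5a* lost its call without any 1 Pre library, WL1 replicate 2 or any 1 WL2 library, with log2 fold changes from -0.66 to -0.53 over the 9 fits. Of 8 caveola genes, which shape the pits of the fat cell membrane, 3 fell (median -0.43), or 1 without any 1 WL2 library. *Cavin3* fell 1.97-fold (log2 fold change -0.98, SE 0.12, edgeR adjusted p = 0.000793). *Ehd2*, which stabilises the necks of caveolae, and *Cav2*, caveolin 2, fell by 0.58 and 0.55 on the log2 scale. *Ehd2* lost its call without Pre replicate 2 or any 1 WL2 library, with log2 fold changes from -0.63 to -0.49 over the 9 fits. *Cav2* lost its call without Pre replicate 1 or any 1 WL2 library, with log2 fold changes from -0.59 to -0.50 over the 9 fits. Of 20 genes of folding in the endoplasmic reticulum, 0 passed in edgeR, DESeq2 or limma and 3 had an unadjusted p under 0.05 (median -0.06, 0.09 with library totals alone). The chaperones *Hspa5* and *Calr* had log2 fold changes of -0.11 (SE 0.26) and -0.22 (SE 0.19).

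Marker lists of other cell types differed in how many members passed, and several held a single call. Of 14 markers of smooth muscle and pericytes, 4 fell (median -0.32), and 1 rose without WL1 replicate 1 or 3. *Acta2*, α-smooth muscle actin, had 374, 350.4 and 371 CPM at Pre and 155, 198 and 174 CPM at WL2 (log2 fold change -1.06, SE 0.12, edgeR adjusted p = 0.00056). *Cspg4*, the pericyte proteoglycan NG2, had 58.0, 72.7 and 67.5 CPM at Pre and 20.8, 19.7 and 16.3 CPM at WL2 (log2 fold change -1.80, SE 0.17, edgeR adjusted p = 0.000129). *Synpo2*, an actin-binding protein, fell 2.15-fold (log2 fold change -1.10, SE 0.15, edgeR adjusted p = 0.00167). The list summed to 2248 to 2694 CPM at Pre and 1417 to 1727 CPM at WL2. Of 15 endothelial markers, 1 rose, *Sox17* (median 0.10), and 1 fell without Pre replicate 3. *Sox17* lost its call without any 1 WL2 library, with log2 fold changes from 0.53 to 0.83 over the 9 fits. All 14 markers of mesothelium, the lining of the fat pad, had log2 fold changes above 0 (median 1.02), but 1 passed, *Cldn15*. *Cldn15* lost its call without Pre replicate 1 or 2 or WL2 replicate 2 or 3, with log2 fold changes from 0.66 to 0.84 over the 9 fits. Their summed levels were 129.5, 561 and 530.0 CPM at Pre and 446, 804 and 1082 CPM at WL2, so that the groups overlapped. The 10 hepatocyte markers, which include abundant liver plasma proteins, all had log2 fold changes below 0, and 3 fell (median -3.97), or 1 without WL2 replicate 2 or 3. Their sums were 12.1, 61.9 and 103 CPM at Pre and 4.22, 6.29 and 8.40 CPM at WL2. At WL1 they were 96.7, 4.68 and 11.1 CPM, so that the level varied widely between libraries of the same phase. *Alb*, albumin, singled out after its values were seen, had 7.14, 33.6 and 62.9 CPM at Pre and 3.07, 4.25 and 5.44 CPM at WL2 (log2 fold change -3.03, SE 1.09, edgeR adjusted p = 0.11). *Serpina1a*, one of several near-identical serpin genes, had 3.48, 4.74 and 6.74 CPM at Pre and 0.438, 0.850 and 0.637 CPM at WL2. The apolipoprotein genes *Apoa2* and *Apoc3* fell by 4.43 and 2.50 on the log2 scale. *Apoa2* lost its call without Pre replicate 2 or 3 or any 1 WL2 library, with log2 fold changes from -5.28 to -4.01 over the 9 fits. *Apoc3* lost its call without WL2 replicate 2 or 3, with log2 fold changes from -2.83 to -2.20 over the 9 fits. All 6 erythrocyte markers had log2 fold changes below 0, 3 fell (median -1.14), or 1 without Pre replicate 2 or WL2 replicate 1 or 2, and their sums were 989, 1619 and 1183 CPM and 421, 607 and 785 CPM in the same order. *Hbb-bt*, *Hba-a1* and *Hbb-bs*, of near-identical globin genes, fell by 1.27, 1.18 and 1.00 on the log2 scale. *Hba-a1* lost its call without Pre replicate 2 or WL2 replicate 1 or 2, with log2 fold changes from -1.44 to -0.95 over the 9 fits. *Hbb-bs* lost its call without Pre replicate 2 or 3, WL1 replicate 1 or WL2 replicate 1 or 2, with log2 fold changes from -1.21 to -0.80 over the 9 fits. The part of blood or of liver transcripts in other results was not tested. Of 9 skeletal muscle markers, 1 fell, *Pvalb* (log2 fold change -2.82, SE 0.36, edgeR adjusted p = 0.000984), with 2 falls without WL1 replicate 3 or WL2 replicate 3 (median 0.14). Of 8 pancreas markers 1 could be tested, the elastase *Cela1*, and it fell 2.82-fold (log2 fold change -1.50, SE 0.18, edgeR adjusted p = 0.000793). The other pancreas markers were not among the genes tested, so that *Cela1* alone is no measure of pancreas tissue here. Of 7 Schwann cell and nerve markers, 1 rose, *Sox10*, which had 0 reads in each Pre library and 3, 18 and 6 reads in the WL2 libraries. It lost its call without any 1 Pre library, WL1 replicate 1 or 3 or WL2 replicate 3, and without WL2 replicate 2 no library reached the 0.5 CPM needed for testing. The median of that list was -0.29. Of 16 genes of epididymis, testis and seminal vesicle, 2 could be tested, the sperm protamines *Prm1* and *Prm2*. *Prm1* had 0.236, 0.165 and 0 CPM at Pre and 0.110, 0.510 and 0 CPM at WL2, *Prm2* had 1.36, 0.606 and 0.0461 CPM at Pre and 0.219, 0.170 and 0 CPM at WL2, and neither had an unadjusted p under 0.05.

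**Figure D5:**
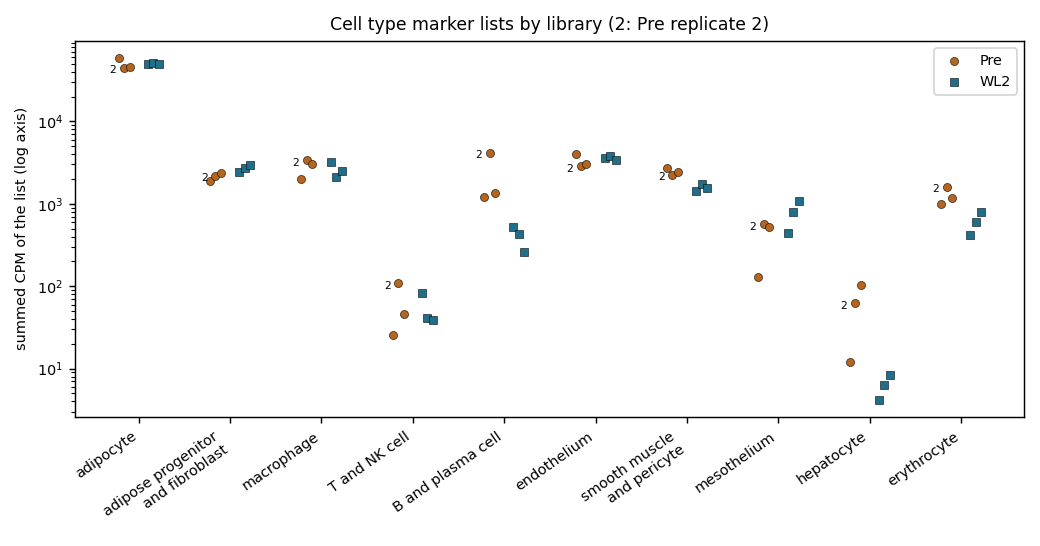
Points give the summed CPM of each cell type marker list in each Pre and WL2 library on a log axis, with Pre replicate 2 marked. Adipocyte sums of the groups overlap, Pre replicate 2 has the highest B and plasma cell sum (4132 CPM), and smooth muscle, hepatocyte and erythrocyte sums are lower in each WL2 library than in any Pre library.

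A set of 23 genes measured by quantitative PCR in the study was read in the sequencing data without the PCR values. The study picked these genes, so they are not independent evidence of direction. Of the 23, 6 fell (*Fasn*, *Lep*, *Col6a1*, *Ccl2*, *Acta2* and *Col3a1*), 2 rose (*Adrb3* and *Mmp11*) and 15 did not pass, and the set had a median of -0.14, or 0.02 with library totals alone. The rises numbered 0 without Pre replicate 3 or WL2 replicate 1 or 2 and 1 without Pre replicate 1 or 2 or WL2 replicate 3.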

How the data were processed

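Per the labels and the study's methods, RNA of epididymal adipose tissue was sequenced and the authors deposited a table of raw read counts per gene and a table of FPKM values, both with gene lengths. The submitters' processing notes name HISAT2, TopHat2 and GRCm38 (mm10), but gene starts and ends in the deposited count table matched those of a GRCm38 annotation (GENCODE vM21) in only 1472 of 52073 shared genes, so that they are not printed. FPKM values were used for levels per length and for an alternative test.

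Counts were scaled by TMM factors and tested with edgeR 4.0.16 (R 4.3.3) in a quasi-likelihood model with a mean per phase over the 9 libraries, for the genes that reached 0.5 CPM in 1 library or more. SEs are the log2 fold change divided by the square root of the F statistic. In simulated data, the script recovered 59 of 100 genes changed 2-fold and 87 of 100 genes changed 4-fold. Of its calls there, 7.01% were on unchanged genes. A gene that did not pass may therefore still have changed. No library holds the values of another. Alternatives were other filters and scalings, DESeq2 1.42.0, limma 3.58.1 on log2(FPKM + 1) and log2(FPKM + 0.1), a replicate block, the 6 libraries alone, and each library left out.

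The comparison, gene lists and tests were chosen with earlier results of these data known. Named genes were those past the threshold without overlap between the groups: the 8 largest rises and falls among protein-coding genes whose mean reached 1 CPM, and again among those whose mean reached 50 CPM, and 3 noncoding genes per direction. From each list, up to 3 members in the direction of its median and up to 2 in the other were named, or the 2 most abundant where none passed, with the genes measured by quantitative PCR. Genes singled out after their values were seen are stated as such. A few such genes are left out of the text, though counts and medians of the lists include them, and the next members by size of change stand in for those of cholesterol synthesis. Gene lists were not tested as sets. Promoter sequences came from RefSeq (GRCm38.p6).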

Additional observations from a re-analysis of the deposited data

How the results depend on the processing

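Of 169 genes that passed and met the naming rule or were added to it, 105 kept their call in each of the 9 fits that left out 1 library, and 0 of them changed sign. With a library left out, 743 to 1688 genes passed, 168 to 579 upward and 575 to 1114 downward, and 450 to 681 changed at least 2-fold. The falls then ran from 10 to 11 in fatty acid synthesis, 14 to 18 in cholesterol synthesis and uptake, 3 to 5 in the pentose phosphate list, 4 to 6 in triglyceride synthesis, 5 to 8 in glycolysis, 1 to 6 in nuclear oxidative phosphorylation, 2 to 8 in the mitochondrial genome, 7 to 9 in the basement membrane, 5 to 6 in collagen VI and fibril-associated collagens, 7 to 9 in collagen modifying enzymes, 2 to 5 in chemokines, 0 to 16 in cell division and 4 to 7 in the genes measured by quantitative PCR. The genes higher at WL2 numbered 1025 in DESeq2, 1495 with library totals alone and 363 with the Pre and WL2 libraries alone, and 344 genes changed at least 2-fold in limma on log2(FPKM + 1), a scale that understates changes of low genes. Of cell division genes, 14 fell without a filter and in DESeq2, 5 in limma with either pseudocount and with library totals alone, and 1 with the 6 libraries alone. Of mitochondrial genome genes, 1 fell in limma with either pseudocount, and 2 with library totals alone and with the 6 libraries alone. With library totals alone, 5 glycolysis genes and 3 oxidative phosphorylation genes fell, and with the 6 libraries alone 3 chemokine genes fell. The cause of these differences was not tested. Pre and WL2 libraries share replicate numbers, but same-numbered libraries did not deviate together (correlations of 0.0383, -0.00657 and 0.107 over genes), and they were not treated as pairs. With a replicate block, 1399 genes passed, 451 upward, and 2 genes each fell in oxidative phosphorylation and in the mitochondrial genome. With 3 libraries per phase, genes of low count had wide errors, and calls near the threshold depended on single libraries.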

Other observations

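Noncoding transcripts were among the genes that passed. Of 2096 long noncoding RNA genes tested, 70 were higher and 45 lower at WL2. Of all genes tested, 3.35% were higher and 6.66% lower, so that rises were near that background and falls below it. 1700047G03Rik went from a mean of 201 ± 52.3 CPM at Pre to 17.1 ± 3.70 CPM at WL2 (SD, n = 3; edgeR adjusted p = 1.51e-05), and ENSMUSG00000120754 and Gm13703 fell by 3.24 and 2.56 on the log2 scale. 2010016I18Rik went from 4.26 ± 1.87 CPM to 27.5 ± 2.74 CPM (SD, n = 3; edgeR adjusted p = 0.00136), and Gm16348 and AI838599 rose by 2.09 each on the log2 scale. Genes lower at WL2 were more abundant (median 46.0 CPM) than genes higher at WL2 (22.1 CPM) and all genes tested (13.1 CPM).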
